A study of Homo sapiens with 18 samples.

Results

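The 50 genes described here drive mitosis and the passage from G2 into it: cyclins and their kinase, mitotic kinases, the spindle checkpoint, kinetochore and spindle proteins, condensin, and the factor FOXM1. They were chosen by name, and each is read from its brightest probe set among those annotated with exactly 1 gene symbol. Of the 50, 48 had a highest group mean of at least 4 on the log2 scale and were tested, among 10717 genes that met the same rule. INCENP, the scaffold of the chromosomal passenger complex, and SGO1, which protects cohesion at centromeres, had highest group means of 2.96 and 3.84 and were not tested. The next members above that limit, SPC24, CDC25C and KIF15, had highest group means of 6.89, 7.99 and 8.03.

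The RNA came from HK-2, a human kidney line immortalized from proximal tubule epithelium, in a study that looked for expression signatures of toxicity to the kidney. The groups are cells given CsA and cells given the vehicle (control), in either case for 12, 24 or 48 h, each of these 6 groups in 3 biological replicates, which makes 18 Affymetrix arrays. CsA is the usual abbreviation of cyclosporin A, but the labels do not write it out and give no dose. Wells were seeded the day before treatment and treated close to confluence, and the analysed arrays hold no sample from before treatment. All arrays carry the mark of a single laboratory. Values are log2 GCRMA intensities, differences are CsA minus control or later minus earlier time in log2 units, and each array is a mixture of all cells in its wells, so that fewer dividing cells and less RNA per dividing cell cannot be told apart.

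A cell that enters mitosis does so when CDK1, bound to cyclin A or B, is switched on by CDC25 phosphatases and by PLK1 and Aurora kinases. Condensin then compacts the chromosomes, kinetochores attach them to the spindle, and the spindle checkpoint holds back the anaphase-promoting complex until every chromosome is attached. Most of these genes are transcribed late in the cycle through promoters bound by MuvB complexes, which recognise the CHR element and recruit B-MYB and FOXM1 in dividing cells or repressive partners in resting cells, and by NF-Y, which binds CCAAT boxes.

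The identity of the cells was checked first. Of the 16 annotated epithelial and proximal tubule markers 8 passed the level filter, among them KRT18 between 11.89 and 13.46, EPCAM between 11.32 and 13.31 and PAX8, a kidney lineage factor, between 9.87 and 11.24. The 8 also include CDH2 (8.38 to 9.21) and VIM (13.51 to 14.21), which are not limited to epithelium. CDH1, which encodes the epithelial adhesion protein E-cadherin, varied from 3.05 to 9.23 over the arrays, with means at 48 h of 7.89 with CsA and 7.03 in control. Brush-border and transport genes of the proximal tubule did not pass: GGT1, ANPEP, MME, CUBN, LRP2, AQP1, SLC34A1 and SLC22A6 stayed at or below 3.23 on every array. Of the listed markers, 0 of 5 endothelial, 0 of 6 leukocyte and 0 of 5 distal nephron genes passed the level filter. Of 5 podocyte genes 2 passed, PODXL between 3.96 and 4.94 and SYNPO between 4.27 and 6.06. Of 7 fibroblast genes 4 passed (COL1A1, COL3A1, LUM and DCN). The summed level of the 7 fibroblast genes lay between 9.17 and 11.27 with CsA and between 9.88 and 12.02 in control at 48 h, against 11.14 to 11.58 with CsA and 11.27 to 11.39 in control at 24 h. The part of this shift in the results at 48 h was not tested. Array medians lay between 2.858 and 2.924, and the 3′ minus 5′ difference of ACTB, a sign of RNA integrity, had a median of 0.806 over the CsA arrays (0.735 to 1.105) and 0.813 over the control arrays (0.675 to 1.207).

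The promoters of the members share letters that the choice of genes did not use. RefSeq promoter windows (GRCh38.p14, 250 bases before to 50 after the first listed start) were at hand for 41 of the 48 members. The CHR element TTTGAA, read on both strands, stood in 28 of the 41 windows (68.3%), against 9.45% of the 8883 tested genes with a window and 15.4% of all 27303 windows. It lay within 60 bases of the start in 23 members (56.1%), against 2.88% of tested genes. CCAAT, on either strand, stood in 70.7% of member windows, against 37.4% of tested genes and 35.7% of all windows, and 41.5% of member windows held at least 2 copies, against 14.1% of tested genes. The E2F site TTTNGCGC stood in 3 member windows (7.32%), against 3.12% of tested genes, 1.83% of all windows and 42.3% of 26 DNA replication genes, of which 3.85% held the CHR element. Of the members, 20 held both the CHR element and CCAAT (48.8%, against 4.04% of tested genes), 4 held neither, and in 1 the 2 motifs overlapped. Of 63 other mitosis genes with a window, 50.8% held the CHR element, 65.1% held CCAAT and 38.1% held at least 2 CCAAT copies. High shares were thus not particular to the members. The matches describe the letters and are not evidence of binding.

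Stretches of 5 members that the results return to are shown to let the motifs be seen in place, each from 150 bases before to 30 after the start, 5′ to 3′ on the gene's strand, from RefSeq (GRCh38.p14). Capitals mark the CHR element (TTTGAA or its reverse complement TTCAAA) and the CCAAT box (CCAAT or its reverse complement ATTGG). They are CCNB2 at chr15:59104996-59105175 (plus strand), HMMR at chr5:163460482-163460661 (plus strand), ANLN at chr7:36389712-36389891 (plus strand), PLK1 at chr16:23678739-23678918 (plus strand) and CENPE at chr4:103198314-103198493 (minus strand).
CCNB2: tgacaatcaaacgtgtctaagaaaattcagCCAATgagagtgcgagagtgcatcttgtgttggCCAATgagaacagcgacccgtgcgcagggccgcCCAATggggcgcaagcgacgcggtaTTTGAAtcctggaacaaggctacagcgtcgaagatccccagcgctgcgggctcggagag
HMMR: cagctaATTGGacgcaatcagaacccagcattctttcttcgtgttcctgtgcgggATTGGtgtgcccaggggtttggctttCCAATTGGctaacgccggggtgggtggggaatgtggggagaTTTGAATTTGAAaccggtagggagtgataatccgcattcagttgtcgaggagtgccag
ANLN: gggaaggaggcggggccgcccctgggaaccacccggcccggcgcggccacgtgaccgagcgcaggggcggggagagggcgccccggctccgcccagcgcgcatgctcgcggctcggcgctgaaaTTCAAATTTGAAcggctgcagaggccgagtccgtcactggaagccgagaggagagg
PLK1: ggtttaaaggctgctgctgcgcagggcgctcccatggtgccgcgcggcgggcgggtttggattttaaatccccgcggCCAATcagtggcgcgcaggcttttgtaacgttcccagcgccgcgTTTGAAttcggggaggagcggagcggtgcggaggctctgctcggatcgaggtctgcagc
CENPE: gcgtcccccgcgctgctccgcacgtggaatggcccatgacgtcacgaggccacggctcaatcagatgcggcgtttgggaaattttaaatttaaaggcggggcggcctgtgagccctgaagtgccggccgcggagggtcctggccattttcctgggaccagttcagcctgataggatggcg

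In these stretches CCNB2, which encodes cyclin B2, has 3 CCAAT boxes, and its CHR element begins 29 bases before the start. HMMR has 4 CCAAT boxes, of which a pair overlaps as a palindrome, and 2 CHR elements in tandem that begin 28 and 22 bases before the start. ANLN has no CCAAT box and 2 CHR elements back to back, 26 and 20 bases before the start. PLK1 has 1 of each, and CENPE has neither string of letters in its whole window. Other spellings of the motifs were not searched. The plot of motif shares and positions shows the CHR elements of the members gathered next to the start and the CCAAT boxes upstream of them.

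**Figure D1:**
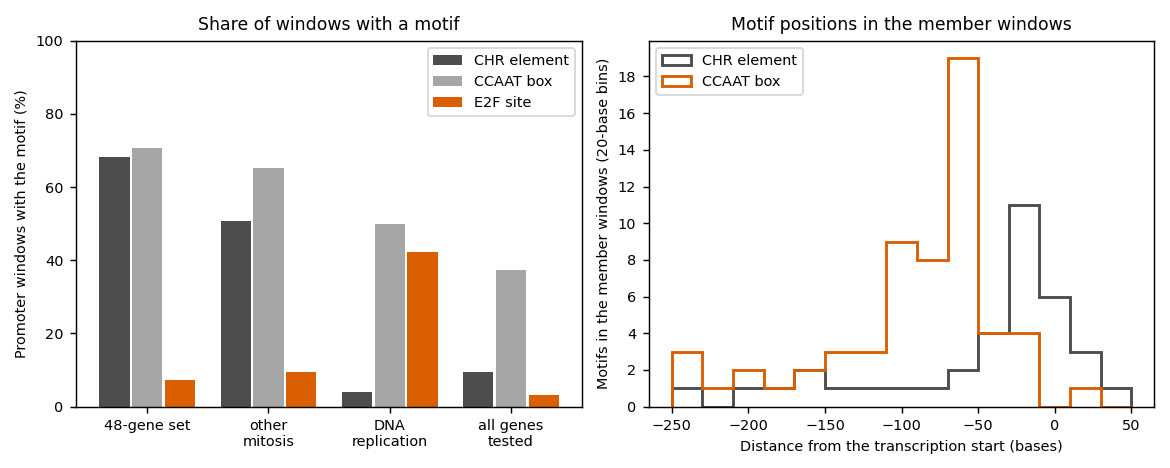
Left: share (%) of RefSeq promoter windows that hold each motif, for the 41 members with a window, 63 other mitosis genes, 26 DNA replication genes and 8883 tested genes. The CHR element reaches 68.3% in the members and 9.45% in all tested genes. Right: number of motifs per bin of distance (bases) from the transcription start in the member windows; CHR elements gather at the start and CCAAT boxes before it.

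All 48 members had lower group means at 48 h than at 24 h, with CsA and in control. The map of every member on every array shows this as a block of low values at 48 h that is deeper with CsA. At 12 and 24 h the arrays differed little: the SD over 3 replicates had a median over the members of 0.20 and 0.22 with CsA and of 0.17 and 0.20 in control. At 48 h that median was 0.78 with CsA and 0.42 in control, against 0.23 and 0.26 over all tested genes. Replicate 2 was the lowest of the 3 arrays for 46 of 48 members with CsA and for 45 of 48 in control at 48 h.

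**Figure D2:**
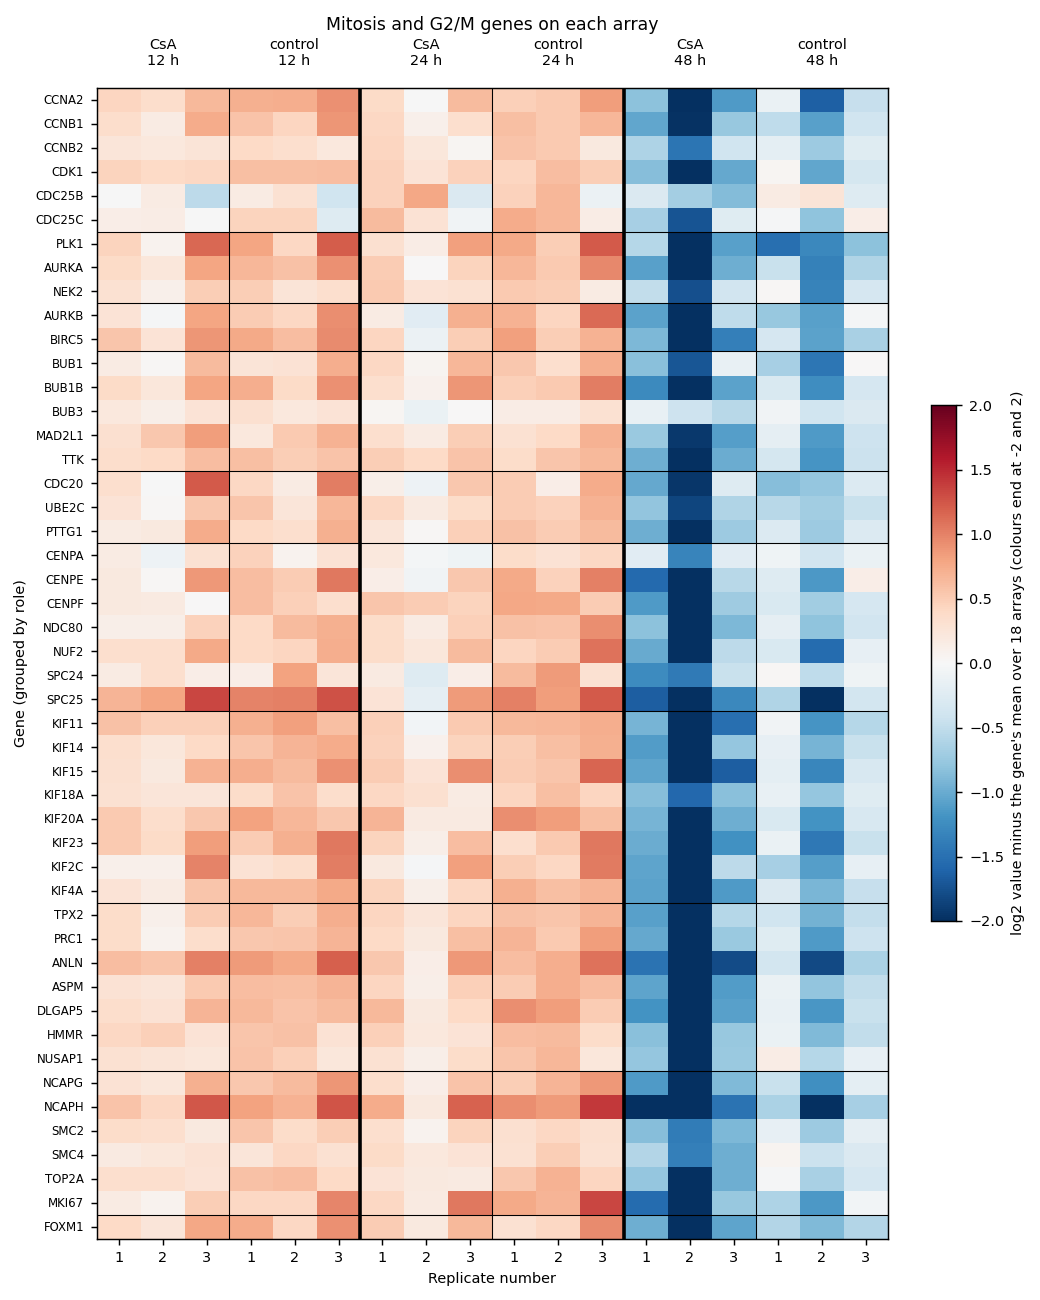
Log2 value of each of the 48 members (rows, grouped by role) on each of the 18 arrays (columns, by treatment, time and replicate number), minus the gene's mean over the 18 arrays. Colours end at -2 and 2. Most cells are red at 12 and 24 h and blue at 48 h, with the darkest blue in CsA replicate 2 of 48 h.

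Between 24 and 48 h, the fall with time passed the test in each treatment. With CsA the 48 h minus 24 h difference had a median of -1.74 over the 48 members, and limma called 47 of them lower (12.3% of all tested genes were called lower). With the replicate number as a block it called 48 (20.5% of all tested genes). The exception without the block was CENPA, the histone H3 variant of centromeres, at -0.61 ± 0.24 (SE), with limma adjusted p = 0.0717, or 0.0136 with the block. In control the median was -1.20, and limma called 36 of 48 lower (7.16% of all tested genes) and 45 with the block (16% of all tested genes). The 3 control members short of the threshold with the block were CDC25B (-0.29), CDC25C (-0.75) and NUSAP1 (-0.68). When the blocked fit used only the compared arrays, it called 24 of 48 lower in control (279 of all 10717 tested genes). With CsA that fit called 44 lower (1048 of all tested genes). The 2 sets of differences stand on different arrays but on a shared estimate of the spread. The control count depended on single arrays: it was 13, 22 and 14 without control replicate 1, 2 or 3 of 24 h and 8 without control replicate 2 of 48 h, and with the block and 1 array left out it lay between 38 and 48.

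The largest fall with CsA was that of NCAPH, a condensin subunit, at -3.05 ± 0.46 (limma adjusted p = 0.000466), 8.28-fold lower at 48 h than at 24 h. ANLN, the scaffold of the cleavage furrow, followed at -2.57 ± 0.37 (limma adjusted p = 0.000372). In control SPC25, a subunit of the NDC80 kinetochore complex, had the largest, at -2.20 ± 0.58 (limma adjusted p = 0.0228), then NCAPH at -2.17 ± 0.46 (limma adjusted p = 0.00868) and PLK1 at -2.04 ± 0.43 (limma adjusted p = 0.0079). The smallest was that of BUB3 with CsA (-0.34 ± 0.12, limma adjusted p = 0.0453) and CDC25B in control. For 47 of 48 members, all 3 arrays of 48 h lay below all 3 of 24 h in each treatment (19.7% of all tested genes with CsA and 16.1% in control), and CDC25B was the exception in each. All 48 members were lower at 48 h in 3 of 3 replicate numbers in each treatment, with medians of -1.36, -2.36 and -1.29 with CsA and -0.77, -1.53 and -1.08 in control for replicates 1, 2 and 3. Between 12 and 24 h no such fall was seen: the 24 h minus 12 h medians were -0.03 with CsA and 0.03 in control, and limma called 0 of 48 in either (0% of all tested genes were called lower in each, and 0 members had an unadjusted p under 0.05). The blocked fit called 0 too, and there 2 members with CsA and 1 in control had an unadjusted p under 0.05.

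At 12 h, CsA cells had slightly lower values for nearly all members. The CsA minus control difference had a median of -0.19 over the 48 members, against -0.01 over all tested genes, and it was negative for 47 and positive for MAD2L1, a spindle checkpoint protein (0.09 ± 0.28). No member passed the test: limma called 0 of 48 with and without the block (0% of all tested genes were called lower), and 0 had an unadjusted p under 0.05 (98 of all 10717 tested genes did). When the blocked fit used the 6 arrays of 12 h alone it also called 0 members, but 23 of 48 had an unadjusted p under 0.05, as did 1434 of all tested genes. The lowest values, -0.36 each, were those of CENPE, KIF4A, MKI67 and KIF15, with SEs of 0.45, 0.24, 0.43 and 0.39. CsA lay below control in 3 of 3 replicate pairs for 34 members (20.6% of all tested genes), and all 3 CsA arrays lay below all 3 control arrays for 12 members (3.1% of all tested genes).

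At 24 h the difference was negative for all 48 members and its median was -0.27, against -0.01 over all tested genes. Limma again called 0 of 48 with and without the block (0% of all tested genes were called lower), and 1 member had an unadjusted p under 0.05 (4 in the blocked fit), as did 406 of all tested genes (1009 in the blocked fit). The blocked fit on the 6 arrays of 24 h alone called 0 members too, with 27 of 48 members and 2086 of all tested genes under that unadjusted limit. The 1 member under that limit without the block was SPC24, another subunit of the NDC80 complex, at -0.59 ± 0.25. SPC25 had the lowest difference, -0.71 ± 0.58, and NEK2, a centrosomal kinase, the highest, -0.03 ± 0.34. CsA lay below control in 3 of 3 pairs for 37 members (23.3% of all tested genes), and the 2 groups of arrays were separate, CsA below, for 15 (5.12% of all tested genes).

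At 48 h, all 48 members were again lower with CsA, with a median of -0.78, against 0.00 over all tested genes. The range ran from KIF15 at -1.25 to BUB3 at -0.12. Without the block limma called 0 of 48 (0.224% of all tested genes were called lower), and 33 members had an unadjusted p under 0.05 (1719 of all tested genes did). The closest to the threshold were the condensin subunits SMC4 (-0.76 ± 0.17, limma adjusted p = 0.0603) and SMC2 (-0.69 ± 0.17, limma adjusted p = 0.0713). With the replicate number as a block limma called 28 of 48, all lower (5.96% of all tested genes), 24 when the block was a random effect (4.33% of all tested genes), and 21 when the blocked fit used the 6 arrays of 48 h alone (4.89% of all tested genes).

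The 28 calls rested on single arrays. In the blocked fit with each array left out in turn (chosen after seeing the data), the count was 0 when CsA replicate 2 or control replicate 1 of 48 h was left out. Leaving out control replicate 3 gave 14, leaving out CsA replicate 1 gave 36, and the count was between 19 and 31 without any other array. The fit with no block gave 11 when CsA replicate 1 of 48 h was left out, 1 for CsA replicate 3 and 6 for control replicate 2. The 2 arrays whose absence gave 0 had the highest 3′ minus 5′ difference of ACTB among the 18, at 1.105 for CsA replicate 2 and 1.207 for control replicate 1 of 48 h. The same difference of GAPDH was highest in control replicate 2 of 48 h, at 0.035, against -0.166 to -0.053 on the other arrays. The part of these differences in the results was not tested. These limits hold for each call with the block at 48 h given from here on.

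By replicate pair at 48 h, the median difference was -0.69, -1.21 and -0.57 in pairs 1, 2 and 3. The members were negative in 47, 48 and 47 of 48 cases, and the exceptions were PLK1 in pair 1 and CDC20 in pair 3. CsA lay below control in all 3 pairs for 46 members, against 26.2% of all tested genes. All 3 CsA arrays lay below all 3 control arrays for 11 (6.77% of all tested genes): CDC25B, CENPF, NDC80, KIF18A, KIF4A, ASPM, NUSAP1, SMC2, SMC4, TOP2A and FOXM1. At 24 h the pair medians were -0.15, -0.41 and -0.23, and at 12 h they were -0.24, -0.28 and -0.12. Pair 2 had the lowest median at each time, as the plot of differences by pair and time shows.

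**Figure D3:**
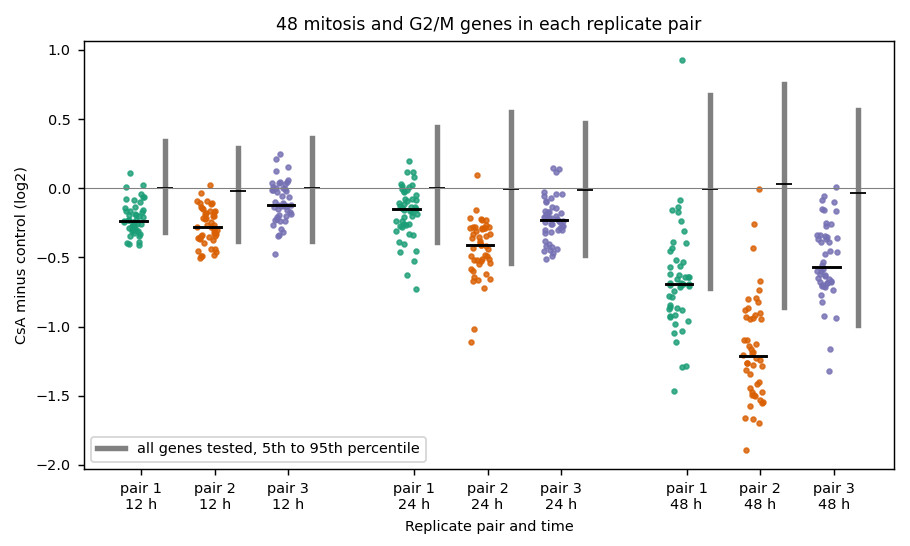
CsA minus control difference (log2) of each of the 48 members (points) in each replicate pair at each time, with the median of the members (black line). Grey bars run from the 5th to the 95th percentile of all tested genes with their median (short line). The member medians run from -0.12 (pair 3 at 12 h) to -1.21 (pair 2 at 48 h), and the point at 0.93 in pair 1 of 48 h is PLK1.

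Among the cyclins, CDK1 and its phosphatases, 3 of 6 were called lower at 48 h with the block, with a median of -0.65 over the 6. Each count by role from here on stands beside 5.96% of all tested genes called lower with the block. A single call in so small a group is no result about the group. CDK1 is the kinase whose activation starts mitosis. CDK1 at 12 h had 11.82, 11.77 and 11.79 with CsA, against 11.97, 11.97 and 11.99 in control. CDK1 at 24 h had 11.83, 11.65 and 11.83 with CsA, against 11.81, 12.00 and 11.87 in control. CDK1 at 48 h had 10.53, 8.81 and 10.36 with CsA, against 11.41, 10.34 and 11.02 in control. The groups were separate at 12 h with CsA below, overlapped at 24 h, and overlapped at 48 h through control replicate 2 alone, which lay just under CsA replicates 1 and 3. The difference at 48 h was -1.02 ± 0.34, 2.03-fold lower with CsA (limma adjusted p = 0.165, or 0.0466 with the block). CDC25B, a phosphatase that activates CDK1, and CCNB1, cyclin B1, were the other 2 called with the block, at -0.66 ± 0.30 and -0.59 ± 0.27 (limma adjusted p = 0.013 and 0.0443 with the block).

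Cyclin B2, the product of CCNB2, had the smallest difference of this group at 48 h. CCNB2 at 12 h had 10.76, 10.74 and 10.78 with CsA, against 10.92, 10.86 and 10.74 in control. CCNB2 at 24 h had 10.95, 10.75 and 10.56 with CsA, against 11.10, 11.04 and 10.72 in control. CCNB2 at 48 h had 9.90, 9.06 and 10.12 with CsA, against 10.33, 9.80 and 10.28 in control. CsA replicates 1 and 3 of 48 h lay above control replicate 2. The difference was -0.44 ± 0.23 (limma adjusted p = 0.36, or 0.177 with the block). CCNA2, cyclin A2, at -0.73, and CDC25C, another activator of CDK1, at -0.64, did not pass with the block either.

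Of the 3 mitotic kinases, 1 was called with the block, with a median of -0.34. AURKA encodes Aurora A, which matures centrosomes and builds the spindle poles. AURKA at 12 h had 11.31, 11.16 and 11.72 with CsA, against 11.60, 11.52 and 11.84 in control. AURKA at 24 h had 11.44, 10.93 and 11.38 with CsA, against 11.60, 11.45 and 11.89 in control. AURKA at 48 h had 9.84, 8.70 and 9.95 with CsA, against 10.48, 9.57 and 10.33 in control. The groups were separate at 24 h, with CsA below, and overlapped at 48 h, when CsA replicates 1 and 3 lay above control replicate 2. The difference at 48 h was -0.63 ± 0.31 (limma adjusted p = 0.337, or 0.0485 with the block).

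PLK1, the kinase that acts from mitotic entry to cytokinesis, was the 1 member higher with CsA in replicate 1 of 48 h. PLK1 at 12 h had 8.35, 7.97 and 9.05 with CsA, against 8.69, 8.32 and 9.11 in control. PLK1 at 24 h had 8.22, 8.05 and 8.73 with CsA, against 8.67, 8.40 and 9.13 in control. PLK1 at 48 h had 7.33, 5.36 and 6.82 with CsA, against 6.40, 6.62 and 7.08 in control. CsA replicate 1 was the highest and CsA replicate 2 the lowest of the 6 arrays of 48 h. The pair differences were 0.93, -1.27 and -0.25, and the mean difference of -0.20 ± 0.43 was far from the threshold (limma adjusted p = 0.9, or 0.704 with the block). Without CsA replicate 2 of 48 h it turned to 0.38. NEK2, a centrosomal kinase, had -0.34 at 48 h and was not called.

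Both tested subunits of the chromosomal passenger complex, which corrects faulty kinetochore attachments, were called with the block at 48 h. BIRC5 encodes survivin, the subunit that places the complex at centromeres. BIRC5 at 12 h had 10.51, 10.22 and 10.84 with CsA, against 10.71, 10.57 and 10.90 in control. BIRC5 at 24 h had 10.38, 9.83 and 10.45 with CsA, against 10.77, 10.45 and 10.65 in control. BIRC5 at 48 h had 9.05, 7.41 and 8.59 with CsA, against 9.61, 8.88 and 9.30 in control. At 48 h CsA replicate 1 lay above control replicate 2 and the other arrays were in order. The difference was -0.92 ± 0.33 (limma adjusted p = 0.193, or 0.0231 with the block). AURKB encodes Aurora B, the kinase of the complex. AURKB at 12 h had 8.83, 8.54 and 9.35 with CsA, against 9.07, 8.98 and 9.50 in control. AURKB at 24 h had 8.73, 8.34 and 9.27 with CsA, against 9.26, 9.0 and 9.70 in control. AURKB at 48 h had 7.50, 6.20 and 8.06 with CsA, against 7.81, 7.48 and 8.52 in control. The arrays of 48 h interleaved by treatment, while CsA lay below control in each pair. The difference was -0.68 ± 0.42 (limma adjusted p = 0.477, or 0.0466 with the block).

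In the spindle checkpoint, 1 of 5 members was called with the block, with a median of -0.69. BUB1B encodes BUBR1, which binds and inhibits CDC20. BUB1B at 12 h had 9.90, 9.75 and 10.31 with CsA, against 10.24, 9.90 and 10.43 in control. BUB1B at 24 h had 9.86, 9.61 and 10.40 with CsA, against 9.99, 10.05 and 10.54 in control. BUB1B at 48 h had 8.24, 7.0 and 8.45 with CsA, against 9.22, 8.27 and 9.18 in control. Of the CsA arrays of 48 h, replicate 3 alone lay above control replicate 2. The difference was -0.99 ± 0.36 (limma adjusted p = 0.193, or 0.0144 with the block). BUB3 is its partner in the checkpoint complex. BUB3 at 12 h had 12.24, 12.14 and 12.30 with CsA, against 12.34, 12.23 and 12.30 in control. BUB3 at 24 h had 12.06, 11.89 and 12.03 with CsA, against 12.17, 12.17 and 12.33 in control. BUB3 at 48 h had 11.87, 11.61 and 11.47 with CsA, against 11.95, 11.62 and 11.74 in control. The groups were separate at 24 h, with CsA below, and overlapped at 48 h. The difference at 48 h was -0.12 ± 0.12 (limma adjusted p = 0.697, or 0.465 with the block), and with all probe sets of the gene averaged it was 0.00. The kinases TTK and BUB1 had -0.71 and -0.19 and MAD2L1 had -0.69 at 48 h, and none passed with the block (limma adjusted p = 0.0541, 0.603 and 0.0805).

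**Figure D4:**
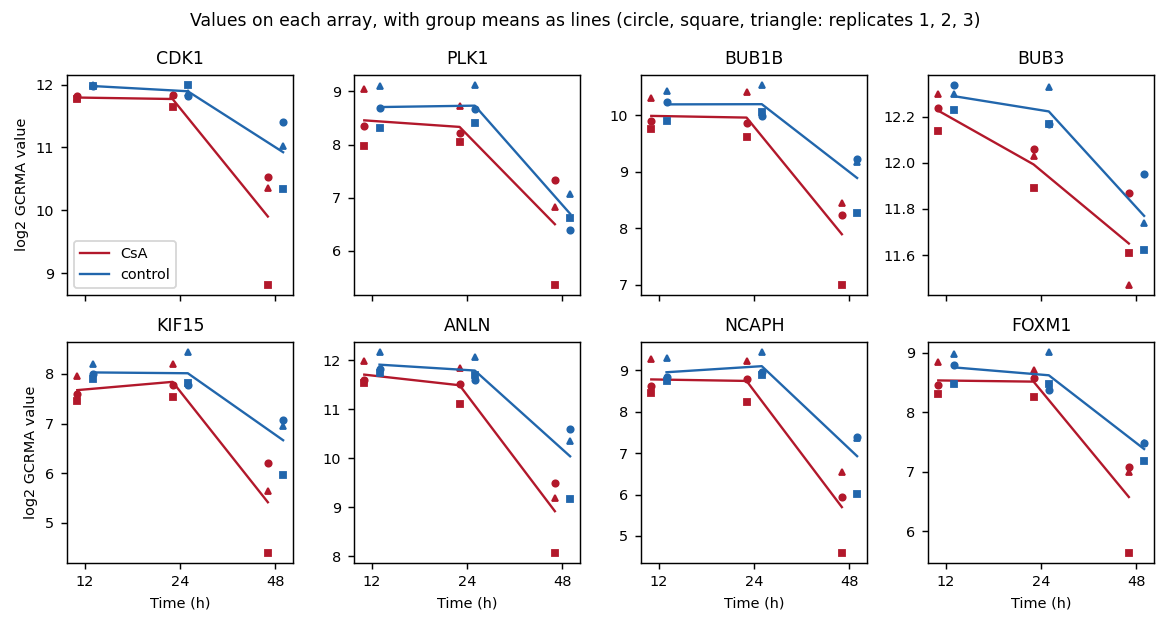
Log2 value on each array against time (h) for 8 members, with CsA in red and control in blue; lines join the group means and points are shifted sideways by treatment. In all 8 panels the mean is lower at 48 h than at 24 h in each treatment and the CsA mean lies below the control mean at 48 h, while the highest PLK1 value of 48 h is that of CsA replicate 1 (7.33).

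The anaphase-promoting complex is the ubiquitin ligase that ends mitosis, and of 3 members that activate it or are its substrates 1 was called with the block, with a median of -0.51. PTTG1 encodes securin, which holds separase inactive until anaphase. PTTG1 at 12 h had 11.83, 11.86 and 12.40 with CsA, against 12.06, 12.00 and 12.37 in control. PTTG1 at 24 h had 11.91, 11.68 and 12.13 with CsA, against 12.24, 12.17 and 12.29 in control. PTTG1 at 48 h had 10.69, 9.62 and 10.94 with CsA, against 11.38, 10.93 and 11.39 in control. The groups were separate at 24 h, with CsA below, and at 48 h a single pair of arrays, CsA replicate 3 and control replicate 2, was out of order. The difference at 48 h was -0.82 ± 0.28 (limma adjusted p = 0.163, or 0.0218 with the block). Its probe set has a suffix that marks probes able to match other transcripts, as do those of CENPA and FOXM1 given here. CDC20 activates the complex. CDC20 at 12 h had 10.86, 10.52 and 11.75 with CsA, against 10.94, 10.69 and 11.54 in control. CDC20 at 24 h had 10.63, 10.42 and 11.06 with CsA, against 11.03, 10.66 and 11.27 in control. CDC20 at 48 h had 9.50, 8.57 and 10.26 with CsA, against 9.67, 9.75 and 10.25 in control. CsA replicate 3 was the highest of the 6 arrays of 48 h and CsA replicate 2 the lowest. The difference was -0.45 ± 0.40 (limma adjusted p = 0.66, or 0.143 with the block). UBE2C, the ubiquitin-conjugating enzyme of the complex, had -0.51 ± 0.25 and was not called with the block (limma adjusted p = 0.0723).

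At the centromere and kinetochore, 3 of 7 members were called with the block, with a median of -0.91. CENPE is a kinesin that carries chromosomes to the spindle equator, and its promoter window held neither motif in the spellings searched. CENPE at 12 h had 8.36, 8.18 and 9.02 with CsA, against 8.77, 8.66 and 9.21 in control. CENPE at 24 h had 8.29, 8.09 and 8.70 with CsA, against 8.92, 8.62 and 9.17 in control. CENPE at 48 h had 6.61, 5.44 and 7.61 with CsA, against 7.90, 7.01 and 8.29 in control. At 48 h CsA replicate 3 lay above control replicate 2. The difference was -1.18 ± 0.45, 2.26-fold lower with CsA (limma adjusted p = 0.216, or 0.0156 with the block). CENPA marks the place where the kinetochore is built. CENPA at 12 h had 8.25, 7.98 and 8.38 with CsA, against 8.54, 8.15 and 8.37 in control. CENPA at 24 h had 8.29, 8.04 and 8.0 with CsA, against 8.45, 8.37 and 8.49 in control. CENPA at 48 h had 7.86, 6.76 and 7.86 with CsA, against 8.0, 7.70 and 7.94 in control. The groups were separate at 24 h, with CsA below, while at 48 h the pair differences were -0.13, -0.94 and -0.09. The difference at 48 h was -0.39 ± 0.24 (limma adjusted p = 0.477, or 0.173 with the block).

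The NDC80 complex binds microtubules directly, and its 4 subunits NDC80, NUF2, SPC24 and SPC25 had differences of -0.95, -0.75, -0.85 and -1.02 at 48 h. NDC80 alone passed with the block (limma adjusted p = 0.0419), SPC24 missed it (0.0539), and NUF2 and SPC25 had 0.155 and 0.116. CENPF, a large kinetochore protein, had -0.91 ± 0.26, was called with the block (limma adjusted p = 0.0373), and its groups did not overlap.

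Mitotic kinesins move along or take apart spindle microtubules, and 5 of 8 were called with the block, with a median of -0.96. KIF15, which helps to keep the spindle poles apart, had the most negative difference of all members at 48 h. KIF15 at 12 h had 7.60, 7.46 and 7.96 with CsA, against 8.0, 7.90 and 8.19 in control. KIF15 at 24 h had 7.78, 7.54 and 8.20 with CsA, against 7.78, 7.82 and 8.44 in control. KIF15 at 48 h had 6.21, 4.40 and 5.63 with CsA, against 7.08, 5.96 and 6.95 in control. At 48 h CsA replicate 1 alone lay above control replicate 2. The difference was -1.25 ± 0.39, 2.38-fold lower with CsA (limma adjusted p = 0.135, or 0.0188 with the block). KIF2C, a microtubule depolymerase, had the least negative difference of the group. KIF2C at 12 h had 10.40, 10.41 and 11.30 with CsA, against 10.59, 10.65 and 11.33 in control. KIF2C at 24 h had 10.49, 10.28 and 11.12 with CsA, against 10.80, 10.71 and 11.34 in control. KIF2C at 48 h had 9.25, 8.02 and 9.78 with CsA, against 9.63, 9.20 and 10.13 in control. The arrays of 48 h interleaved by treatment. The difference was -0.64 ± 0.41 (limma adjusted p = 0.506, or 0.0588 with the block). The other 4 called were KIF11, KIF14, KIF18A and KIF4A, between -1.01 and -0.70, and KIF20A and KIF23 were not (-1.05 and -1.04, limma adjusted p = 0.0791 and 0.0587 with the block).

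Among spindle and cytokinesis proteins 5 of 7 were called with the block, with a median of -1.0. ANLN, the furrow scaffold with back-to-back CHR elements, differed by nearly the same amount in each pair. ANLN at 12 h had 11.60, 11.54 and 11.99 with CsA, against 11.83, 11.74 and 12.17 in control. ANLN at 24 h had 11.52, 11.12 and 11.84 with CsA, against 11.60, 11.71 and 12.07 in control. ANLN at 48 h had 9.50, 8.08 and 9.19 with CsA, against 10.61, 9.17 and 10.35 in control. CsA replicates 1 and 3 of 48 h lay above control replicate 2, yet the pair differences were -1.11, -1.10 and -1.16. The mean difference was -1.12 ± 0.37 (limma adjusted p = 0.162, or 0.0218 with the block). HMMR encodes a microtubule-binding spindle protein that is also a hyaluronan receptor. HMMR at 12 h had 10.86, 10.92 and 10.72 with CsA, against 11.00, 11.03 and 10.74 in control. HMMR at 24 h had 10.92, 10.66 and 10.72 with CsA, against 11.06, 11.08 and 10.81 in control. HMMR at 48 h had 9.62, 8.41 and 9.69 with CsA, against 10.32, 9.57 and 9.95 in control. CsA replicates 1 and 3 of 48 h lay above control replicate 2. The difference was -0.71 ± 0.27 (limma adjusted p = 0.223, or 0.0818 with the block). The others called were PRC1, which bundles the central spindle, and ASPM, DLGAP5 and NUSAP1, between -1.06 and -0.75. TPX2, which activates Aurora A, was not (-0.72, limma adjusted p = 0.0677 with the block).

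Of the condensin and chromosome structure genes, 6 of 6 were called with the block, with a median of -0.92. NCAPH belongs to condensin I. NCAPH at 12 h had 8.61, 8.45 and 9.28 with CsA, against 8.84, 8.73 and 9.29 in control. NCAPH at 24 h had 8.78, 8.23 and 9.22 with CsA, against 8.97, 8.89 and 9.44 in control. NCAPH at 48 h had 5.94, 4.60 and 6.55 with CsA, against 7.40, 6.01 and 7.37 in control. At 48 h CsA replicate 3 lay above control replicate 2. The difference was -1.23 ± 0.46, 2.35-fold lower with CsA (limma adjusted p = 0.214, or 0.0155 with the block). SMC2 is the ATPase shared by condensin I and II. SMC2 at 12 h had 10.07, 10.04 and 9.90 with CsA, against 10.26, 10.07 and 10.20 in control. SMC2 at 24 h had 10.05, 9.77 and 10.15 with CsA, against 10.03, 10.12 and 10.03 in control. SMC2 at 48 h had 8.86, 8.31 and 8.81 with CsA, against 9.55, 8.98 and 9.52 in control. The groups were separate at 12 and 48 h with CsA below, overlapped at 24 h, and the pair differences at 48 h were -0.69, -0.67 and -0.71. The mean difference was -0.69 ± 0.17 (limma adjusted p = 0.0713, or 0.0126 with the block). SMC4, NCAPG, TOP2A, which untangles DNA, and MKI67, the Ki-67 antigen that coats mitotic chromosomes, lay between -1.10 and -0.76 (limma adjusted p = 0.0155, 0.0416, 0.0287 and 0.0179 with the block).

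FOXM1 is the transcription factor that activates many of these genes in G2. FOXM1 at 12 h had 8.46, 8.30 and 8.84 with CsA, against 8.80, 8.48 and 8.98 in control. FOXM1 at 24 h had 8.57, 8.26 and 8.71 with CsA, against 8.37, 8.48 and 9.01 in control. FOXM1 at 48 h had 7.08, 5.64 and 7.0 with CsA, against 7.48, 7.18 and 7.48 in control. At 48 h all 3 CsA arrays lay below all 3 control arrays, and CsA replicate 2 lay farthest. The difference was -0.80 ± 0.31, 1.75-fold lower with CsA (limma adjusted p = 0.229, or 0.0347 with the block). Between 24 and 48 h FOXM1 fell by 1.94 ± 0.31 with CsA and by 1.24 ± 0.31 in control on the log2 scale (limma adjusted p = 0.000679 and 0.019).

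**Figure D5:**
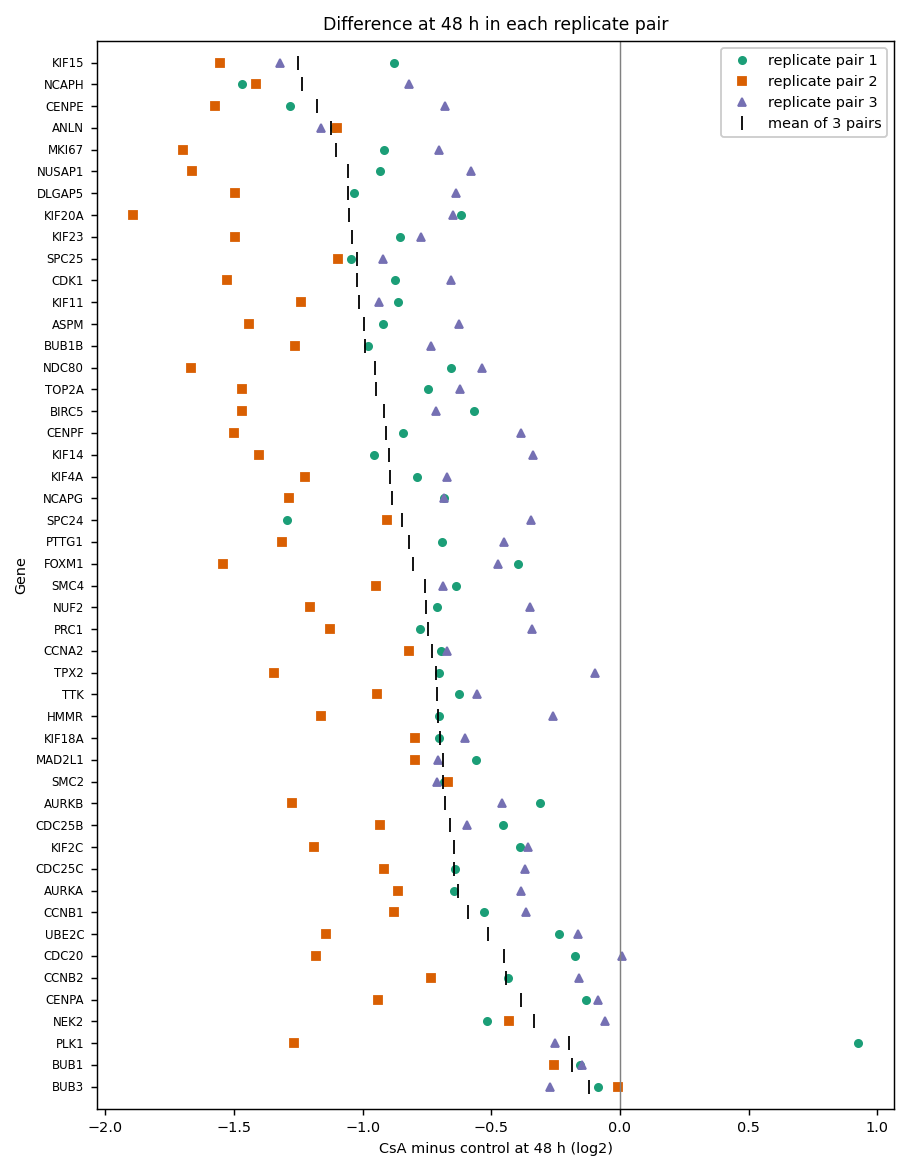
CsA minus control difference (log2) at 48 h of each of the 48 members in replicate pairs 1, 2 and 3, with the mean as a vertical tick, ordered by the mean. All means are negative, from KIF15 (-1.25) to BUB3 (-0.12); PLK1 in pair 1 (0.93) is the point far to the right.

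The average of the CsA minus control differences over the 3 times had a median of -0.44 over the members, and all 48 were negative. Limma called 0 of 48 (0.00933% of all tested genes were called lower). In that fit 29 members had an unadjusted p under 0.05, as did 1312 of all tested genes. The blocked fit called 11 (2.5% of all tested genes). The 11 were AURKA, AURKB, BIRC5, BUB1B, PTTG1, CENPE, KIF4A, ASPM, NCAPH, SMC2 and MKI67. CENPE had the lowest average, -0.69 ± 0.26 (limma adjusted p = 0.284, or 0.0233 with the block). The blocked count lay between 0 and 28 with 1 array left out: it was 0 when CsA replicate 1 or control replicate 2 of 12 h was left out, while leaving out CsA replicate 1 of 48 h gave 28.

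Whether the difference between CsA and control was larger at 48 h than at 24 h was tested as an interaction. The change had a median of -0.56 and was negative for 46 of 48 members, but limma called 0 with and without the block. Of all 10717 tested genes, 0 were called lower without the block and 1 with it. SMC4 and SMC2 had an unadjusted limma p under 0.05 (0.0125 and 0.0212), as did 609 of all tested genes. With the block 12 members did, and 1438 of all tested genes. With the block and without CsA replicate 1 of 48 h, 1 member was called. The median lay between -0.78 and -0.08 with 1 array left out.

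Members with and without the CHR element were set side by side as a description. The split rests on the letters TTTGAA in the window of the first listed start, and 7 of the 41 members list several starts. A member counted as without the element may hold another spelling, or hold it at another start. At 48 h the median CsA minus control difference was -0.90 (-1.25 to -0.20) for the 28 with it and -0.68 (-1.23 to -0.19) for the 13 without. At 24 h it was -0.27 with the element and -0.32 without, and between 24 and 48 h in control it was -1.13 and -1.24, so the order of the 2 sets was not the same in each comparison.

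Other genes of the same machinery were listed by name. Of 83 other mitosis genes 79 passed the level filter, and at 48 h 75 had a negative CsA minus control difference, with a median of -0.69. Limma called 0 of them without the block (50 at an unadjusted p under 0.05, against 1719 of all tested genes) and 32, all lower, with it (5.96% of all tested genes were called lower). The smallest p values were those of ZWINT, a kinetochore protein (-1.41 ± 0.32), ECT2, which activates RhoA for cytokinesis (-1.0 ± 0.24), and ESPL1, separase (-1.50 ± 0.37), with limma adjusted p = 0.0614, 0.0693 and 0.07. With the block they had 0.00949, 0.018 and 0.0194. Between 24 and 48 h limma called 69 of the 79 lower and 2 higher with CsA (12.3% and 12.9% of all tested genes), and 44 lower and 1 higher in control (7.16% and 7.32% of all tested genes).

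Lists of complexes that work beside the members were described in the same way, beside 4.8% of all tested genes called higher and 5.96% called lower at 48 h with the block, shares against which 1 or 2 calls in a list of 10 or 14 are no result about the list. The 14 tested core subunits of the anaphase-promoting complex had a median CsA minus control difference of 0.08 at 48 h, with 1 higher and 1 lower call with the block. The 10 cohesin genes had a median of -0.22, with 2 lower calls with the block, SMC1A and PDS5B. The 10 tested MuvB and DREAM subunits had a median of -0.04 and 2 lower calls with the block, of which TFDP1, a partner of E2F factors, was 1 (-0.63 ± 0.20, limma adjusted p = 0.0365 with the block). For the 29 DNA replication genes the median was -1.21, with 2 lower calls without the block and 25 with it. The difference between these lists and the members was not tested.

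Other probe sets of the members gave the same direction in most cases. A further 36 probe sets of 23 members passed the level filter, and 32 had the sign of the brightest one at 12 h, 35 at 24 h and 34 at 48 h. The 2 that did not at 48 h and the 1 at 24 h belonged to BUB3, and the 4 at 12 h belonged to BUB3 (2), MAD2L1 (1) and SMC4 (1).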

How the data were processed

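RNA of HK-2 cells was measured on 18 arrays, 3 biological replicates in each of 6 groups. Per the submitters' processing notes the deposited values were made with GCRMA, no version given, which corrects background, normalizes arrays together and summarizes probe sets. The authors' deposited table of 54675 probe sets holds values taken as log2 intensities from their range, since no label states the log base. GCRMA holds dim probe sets near a common low value, which compresses their differences, and the number of arrays limits the precision.

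Gene names came from the platform's annotation, which gave 1 symbol to 41091 probe sets, several to 1801 and none to 11721 (unnamed here), besides 62 array controls. Gene identifiers were looked up in RefSeq, which changed 0 symbols, and 54 had no match. For each gene the brightest probe set with 1 symbol was kept if its highest group mean was at least 4, leaving 10717 genes. The test was limma (version 3.58.1, lmFit with eBayes, under R 4.3.3) on all 18 arrays with a term per group and no block, adjusted by Benjamini-Hochberg over all 10717 genes at a threshold of 0.05. Errors are standard errors of that fit unless named SD. The p-values of comparisons that use the same arrays are not independent. The fit without the block was run on simulated data that held no replicate effect, so that run says nothing about the pairing of arrays. Summaries and figures used python 3.11.15 with pandas 2.3.3, numpy 2.4.6 and matplotlib 3.10.9. Promoter windows were RefSeq's (GRCh38.p14), with the first listed start of each gene (7 members list several).

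The labels number replicates 1 to 3 in each group and do not say what a number shares. Deviations from group means correlated between arrays of the same number at 0.277 to 0.942 over 45 pairs, and 18 of 18 arrays lay closest to their own number, so the numbers were treated as pairs, a decision that rests on these values, as no label states it. The replicate number as a block was therefore an alternative beside each result. Other alternatives were a random block (consensus correlation 0.398), the block on the compared arrays alone, other level filters, quantile normalization, a floor at 4, the mean of probe sets, and each array left out.

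The members, their roles and the other lists were chosen with earlier results of these data known, so no count of members is independent support for a direction. Values on every array are given for the member with the most negative and the one with the least negative difference at 48 h in each role group.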

Additional observations from a re-analysis of the deposited data

Results flagged for a closer look

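MAD2L1, which encodes the spindle checkpoint protein MAD2, differed in opposite directions at 12 and 48 h in every replicate pair. MAD2L1 at 12 h had 11.47, 11.69 and 11.98 with CsA, against 11.36, 11.67 and 11.85 in control. The difference was 0.09 ± 0.28, positive in 3 of 3 pairs (0.11, 0.02 and 0.13), and it lay between -0.05 and 0.21 with 1 array left out. MAD2L1 at 48 h had 10.41, 9.22 and 10.04 with CsA, against 10.97, 10.02 and 10.74 in control. The difference was -0.69 ± 0.28, negative in 3 of 3 pairs (-0.56, -0.80 and -0.71). The limma adjusted p was 0.255, or 0.0805 in the fit with the replicate block. The difference between 12 and 48 h was not tested. Of the 2 further probe sets of the gene, 1 had the opposite sign at 12 h.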

How the results depend on the processing

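At 48 h the count of members called lower with CsA was 0 without the block, and 28, 24 and 21 with the replicate block as a fixed term, as a random effect, and on the 6 compared arrays alone. For the average over the times these counts were 0, 11, 7 and 11. No other count of members called moved by more than 1.5 times with the block, which pairs the arrays. The control count between 24 and 48 h moved by 1.5 times, from 36 to 24, with the block on the compared arrays alone. Without the level filter limma called 20 of 50 members lower between 24 and 48 h in control, against 36 of 48 with it, and more genes were adjusted for. The other alternatives (a level filter of 6, quantile normalization, a floor at 4 and the mean of probe sets) kept each count within 1.5 times.

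With 1 array left out and no block, the count lay between 0 and 0 at 12 h, 0 and 0 at 24 h, 0 and 11 at 48 h, 0 and 2 for the average, and 0 and 0 for the interaction. It lay between 39 and 47 for 48 h minus 24 h with CsA and between 8 and 46 in control, and was 0 for 24 h minus 12 h in each. Of the values of members given in full, 1437 alternatives kept direction and side of the threshold, 35 passed it and 10 changed direction. BUB3 at 48 h was 0.00 with the mean of probe sets. The other changes came with 1 array left out, when PLK1 at 48 h lay between -0.61 and 0.38, CDC20 at 12 h between -0.37 and 0.25, KIF2C at 12 h between -0.46 and 0.08, KIF15 at 24 h between -0.35 and 0.04, SMC2 at 24 h between -0.15 and 0.04 and FOXM1 at 24 h between -0.23 and 0.09. The arrays whose absence turned a sign were CsA replicate 2 of 48 h for PLK1, CsA replicates 1 and 2 and control replicate 3 of 12 h for CDC20, control replicate 3 of 12 h for KIF2C, control replicate 3 of 24 h for KIF15 and FOXM1, and CsA replicate 2 of 24 h for SMC2 and FOXM1. The cause was not tested.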

Other observations

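Among the other mitosis genes, between 24 and 48 h, MIS12, which builds the link between centromere and outer kinetochore, rose with time while most of the list fell. Its 48 h minus 24 h difference was 1.37 ± 0.14 with CsA (limma adjusted p = 4.92e-05) and 1.01 ± 0.14 in control (limma adjusted p = 0.000699). KIF18B, a kinesin, and SPAG5, a spindle protein, were lower at 48 h, by differences of -2.01 ± 0.27 and -1.72 ± 0.22 with CsA (limma adjusted p = 0.000235 and 0.000183). TACC3, which stabilizes spindle fibres, fell by 1.29 ± 0.15 in control (limma adjusted p = 0.000203).

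Of the MuvB and DREAM subunits, MYBL2, the B-MYB factor of dividing cells, and TFDP1 were lower at 48 h than at 24 h. MYBL2 differed by -2.25 ± 0.50 with CsA and by -1.72 ± 0.50 in control (limma adjusted p = 0.00501 and 0.0354). TFDP1 differed by -1.23 ± 0.20 with CsA and by -0.97 ± 0.20 in control (limma adjusted p = 0.000711 and 0.00758). LIN37, a core MuvB subunit, differed by 0.86 ± 0.21 with CsA (limma adjusted p = 0.00817). The median of the 10 tested genes of this list was -0.07 with CsA and -0.04 in control. Limma called 3 lower and 1 higher with CsA (12.3% and 12.9% of all tested genes). In control it called 2 lower and 0 higher (7.16% and 7.32% of all tested genes).

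Cohesin subunit SMC1A and its regulator PDS5B fell with time, SMC1A by 1.2 ± 0.21 with CsA and by 0.67 ± 0.21 in control (limma adjusted p = 0.000939 and 0.0418). The 10 cohesin genes had 48 h minus 24 h medians of -0.31 with CsA and -0.17 in control. Limma called 3 of them lower with CsA and 2 in control (12.3% and 7.16% of all tested genes).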
